A study of Mus musculus with 6 samples.

Results

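The genes described here were the ATP-binding cassette (ABC) genes of mouse subfamilies A to G, without the exporters of bile salts and bile lipids. They were chosen by name: a row of the deposited table was taken when its identifier belonged to a protein-coding gene whose symbol starts with Abca to Abcg and a digit, and Abcb11, Abcc2, Abcb4, Abcg5 and Abcg8 were left out. Of the 52550 genes listed, 50 carried such a symbol, 5 of these were left out and 45 remained. The rule itself uses no measured value. The name "transporter" does not cover all of them, because Abce1 and Abcf1 to Abcf3 have no membrane-spanning part and act on ribosomes.

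The RNA was that of GFP-positive liver cells, sorted from Sox9-GFP embryos of the CD-1 mouse strain. There were 3 libraries per stage, E16.5 and E18.5 (days 16 and 18 in the sample labels), called replicates A, B and C. Sox9-GFP is a reporter that marks cells expressing SOX9, a transcription factor of developing bile duct cells. All embryos carried this reporter and the labels name no treatment besides the dissociation and the sort, so the groups are defined by age alone. Each library came from a pool of 15 livers, and lineage-marked haematopoietic cells had been removed with antibodies before the sort. The study asked what drives the opening of the bile duct lumen, and used the sequencing to see whether ion transporters and water channels were expressed at that time. Whether the pools came from separate litters or sorting days is not given in the sources used here, and the p-values therefore measure the spread between these libraries, which may be technical. In a sorted bulk sample, fewer cells of a type and less RNA per cell cannot be told apart.

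ABC proteins use ATP to move substrates across membranes, or, in subfamilies E and F, to act on ribosomes. In the liver, members of the family export drugs and conjugated organic anions, load lipid onto lipoproteins, bring acyl-CoA into peroxisomes and handle haem intermediates in mitochondria. In an epithelium such as the bile duct, the same family helps to decide which compounds are returned to the blood side and which pass into the lumen.

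Values are transcripts per 1000000 (TPM), a level divided by the length of all annotated exons of a gene. This length can exceed that of the longest transcript (7990 against 4306 bases for Abcb1b, 5480 against 4997 for Abcb1a). Comparisons of level between genes, and ratios of 2 genes, are therefore approximate. The libraries held between 13093937 reads (E18.5 replicate C) and 26206374 reads (E16.5 replicate A), and every E18.5 library was shallower than every E16.5 library. Genes labelled as cholangiocyte markers were present at both stages and 10 of 13 rose at E18.5, with summed levels of 1036 to 3039 TPM at E16.5 and 8974 to 15084 TPM at E18.5. Spp1 alone gave 469 to 1767 TPM of these sums at E16.5 and 6629 to 12121 TPM at E18.5, so the size of this rise is largely that of Spp1. Krt19 and Epcam were above 0 in every library. Of 11 hepatoblast markers found, 7 fell, and the sums of all 11 went from 180627 to 229587 TPM to 41836 to 103919 TPM. Alb alone gave 117854 to 148077 TPM of these sums at E16.5 and 30024 to 70152 TPM at E18.5. It was the largest part in every library and was not itself called (limma adjusted p = 0.146). All 12 megakaryocyte markers fell, from 4202 to 11823 TPM to 153 to 938 TPM. Of 12 mesenchyme markers 5 rose (287 to 451 TPM, then 587 to 1049 TPM), of 12 leukocyte markers 4 rose and of 12 endothelial markers 2 rose, while 26.0% of all genes were called as higher. With median-of-ratios scaling, 6 cholangiocyte markers, 1 mesenchyme marker and no leukocyte or endothelial marker were called as higher, 1 leukocyte and 1 endothelial marker were called as lower, and the lower calls were 6 for hepatoblast, 12 for megakaryocyte, 2 for erythroid and 0 for pancreatic genes. Of 11 erythroid markers found 2 fell, and of 9 pancreatic genes tested 2 fell. None of the 12 proliferation genes passed the adjusted threshold of limma, while 3 had an unadjusted p under 0.05 2 were called by limma voom on recovered reads, and 7 were called as lower with median-of-ratios scaling. The libraries, labelled as cholangiocytes, thus also held transcripts of hepatoblast and megakaryocyte markers.

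The share of the RNA taken up by the family as a whole did not separate the stages. The 45 genes summed to 1446, 1414 and 1460 TPM at E16.5 and to 1522, 1399 and 1503 TPM at E18.5, and the ranges overlapped (1440 ± 23.9 against 1475 ± 66.6 TPM, SD, n = 3 each; exact two-sided permutation p = 0.5). The shares of some genes in this sum did not overlap between the stages. Abca1, which hands cholesterol and phospholipid to apolipoprotein A-I, gave 20.4 ± 1.45% of it at E16.5 and 11.9 ± 1.08% at E18.5, whereas Abca8a gave 4.82 ± 0.76% and 11.6 ± 2.16% (SD, n = 3 each). Abcc6 gave 6.68 ± 0.58% and 2.31 ± 0.80%. The exact permutation p was 0.1 for each of these 3 genes, which is the smallest that 3 against 3 libraries allow and does not pass 0.05, and it was 0.2 to 0.8 for the shares of Abca3, Abca6, Abca8b and Abcc5, the others computed. At E16.5, 3 of the 45 genes had a mean over 100 TPM, 20 lay between 10 and 100, 12 between 1 and 10, and 10 under 1. The numbers at E18.5 were 4, 20, 13 and 8.

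The stages were compared with limma on log2(TPM + 1) over 22452 genes whose mean reached 1 TPM, and a gene was called when its Benjamini-Hochberg adjusted p over all these genes was under 0.05. Of the 45 ABC genes, 37 were tested and 12 were called: Abca8a, Abcb1a, Abcb1b, Abcc3, Abcc4, Abcc9 and Abcd3 were higher at E18.5, and Abca1, Abca7, Abcb9, Abcc6 and Abcg2 were lower. Over all genes tested, 31.2% were called, 26.0% as higher and 5.22% as lower, so the 12 of 37 lay near the background. Among the 13961 protein-coding genes tested the shares were 37.9%, 31.5% and 6.43%. In 18 of the 37 genes (12 higher, 6 lower) no value of one stage reached into the other, against 53.3% of all genes tested and 63.2% of the protein-coding ones. The 12 called genes are drawn library by library in the plot of TPM values, and the changes of 35 of the 37 tested genes in the plot of fold changes by role.

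The direction of these counts depends on how the libraries are scaled. As deposited, the median gene was 0.42 higher at E18.5 on the log2 scale, and 83.3% of all calls were rises. The median of the 37 ABC genes was 0.08, and only the 7 called as higher lay above the median of all genes. With median-of-ratios scaling, which brings the median of all genes to 0.01, the median of the ABC genes was -0.37, and 1 gene was called as higher and 9 as lower (6.44% and 10.5% of all genes). With quantile normalization the numbers were 2 and 6. Abca7, Abcc6, Abcb9, Abca1 and Abcg2 were called as lower and Abcc4 as higher under all 3 scalings. Abca8a was called as deposited and with quantile normalization, and the other rises were called as deposited only. Values below are as deposited, and the change minus the median of all genes is named as the relative change.

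**Figure D1:**
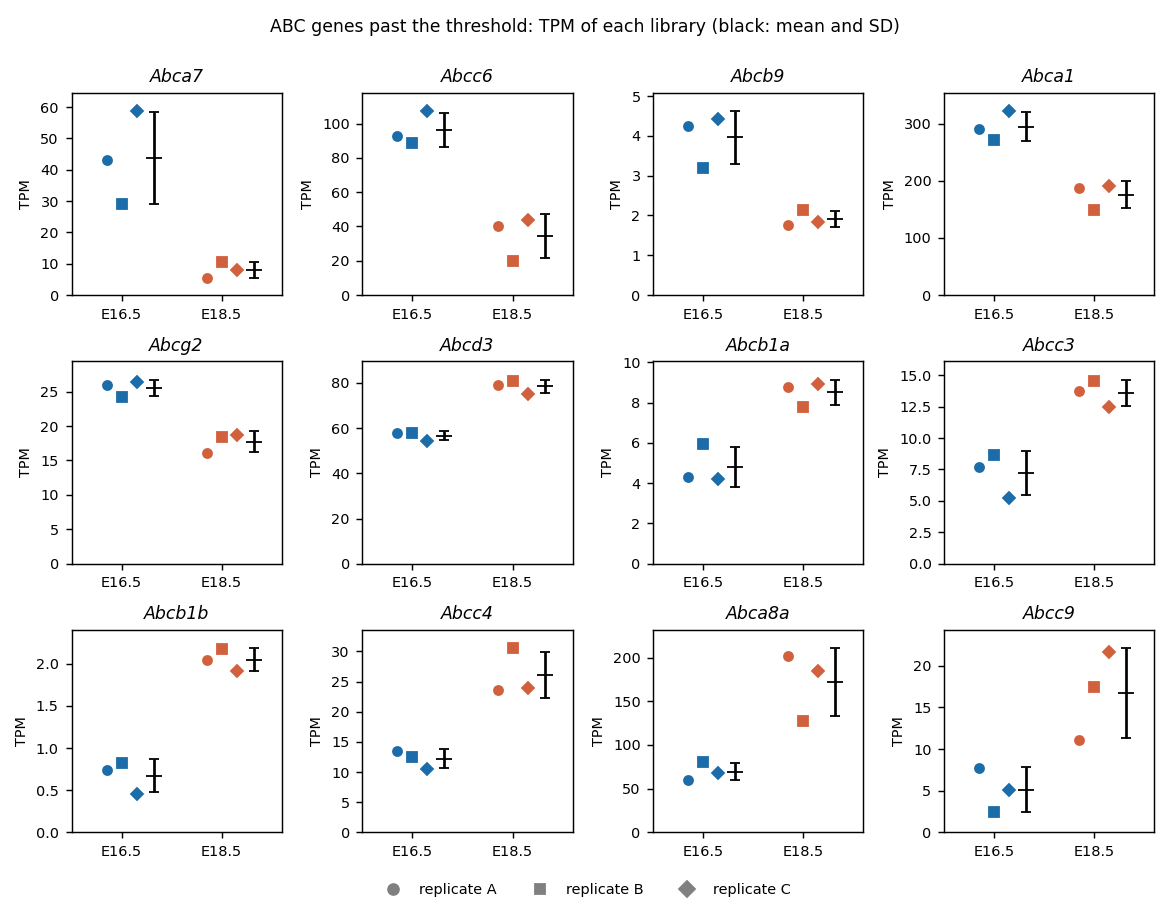
TPM (y axes, each from 0) of the 12 called ABC genes in the 3 E16.5 libraries (blue) and the 3 E18.5 libraries (orange); black bars give the mean and SD. The stages do not overlap in any of the 12 genes, and Abca7 goes from 29.1 to 58.7 TPM at E16.5 to 5.52 to 10.7 TPM at E18.5.

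**Figure D2:**
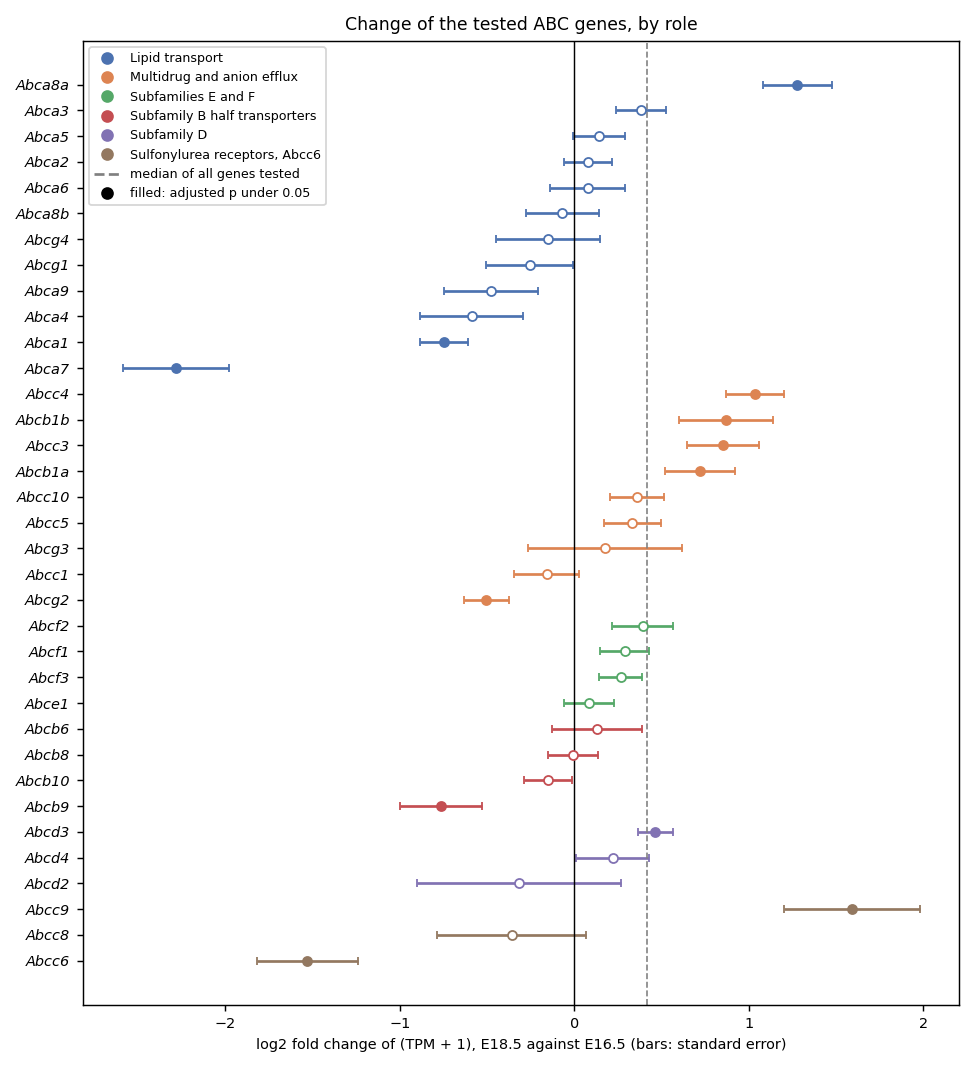
Log2 fold change of TPM + 1, E18.5 against E16.5 (x axis), with its standard error, for 35 of the 37 tested ABC genes sorted by role (colours); filled points passed an adjusted p of 0.05. The dashed line marks the median of all genes tested (0.42), and 7 of the points lie to the right of it.

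**Figure D3:**
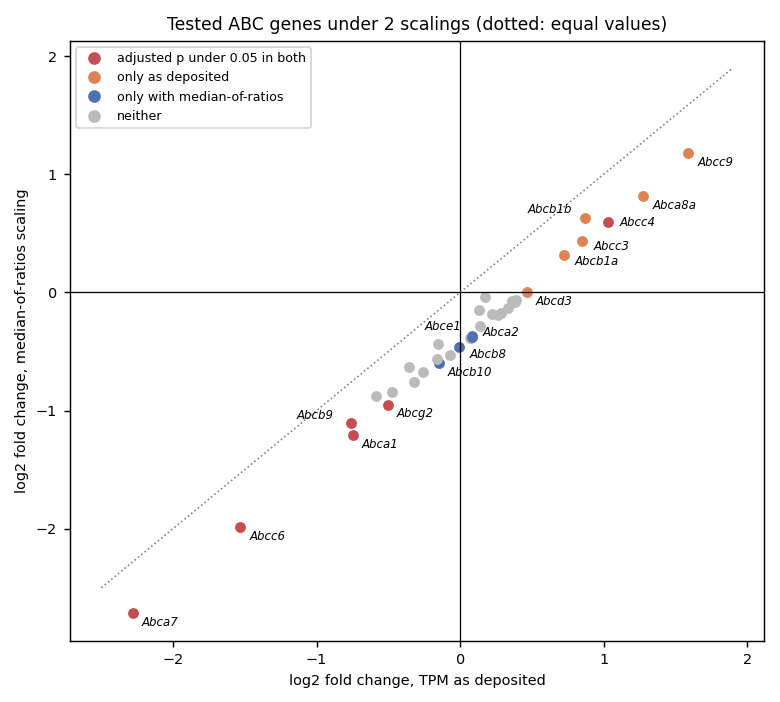
Log2 fold change of the 37 tested ABC genes with the TPM as deposited (x axis) and with median-of-ratios scaling (y axis), coloured by the scaling under which the adjusted p was under 0.05. All points lie below the dotted line of equal values, and Abcc4 is the only point above 0 that was called under both.

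Multidrug and organic anion exporters of the plasma membrane counted 11 genes, of which 9 were tested, 4 were higher at E18.5, 1 was lower and 4 were not called. The 4 rises were Abcc4, Abcc3, Abcb1a and Abcb1b, and the fall was Abcg2. The median change of the 9 was 0.36, and -0.04 with median-of-ratios scaling. The cholangiocyte marker sum, of which Spp1 was the largest part in every library, rose over the same libraries. Within E16.5 it was lowest in replicate C, where all 4 genes were also lowest. Within E18.5 it was again lowest in replicate C (8974 TPM). Abcc3 and Abcb1b were also lowest there, but Abcb1a was highest there (8.94 TPM) and Abcc4 was lowest in replicate A (23.7 TPM). The part of this sum in these results was not tested.

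Abcc4 (ENSMUSG00000032849.13, chr14:118482692-118706219 in GRCm38), an exporter of cyclic nucleotides and of conjugated bile salts and steroids, read 13.6, 12.6 and 10.5 TPM at E16.5 and 23.7, 30.5 and 24.0 TPM at E18.5. Every E18.5 library lay above every E16.5 library. The mean went from 12.2 ± 1.56 to 26.1 ± 3.85 TPM (SD, n = 3 each), 2.13-fold, with a log2 change of 1.03 (SE 0.17, limma adjusted p = 0.0111; relative change 0.62). It was called under all 14 alternatives that could be fitted, including each of the 6 left-out libraries.

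Abcc3 (ENSMUSG00000020865.16, chr11:94343295-94392997) moves glucuronide conjugates out of the cell on its blood side. Its levels were 7.68, 8.66 and 5.26 TPM at E16.5 and 13.8, 14.5 and 12.4 TPM at E18.5, with no overlap, and the change was 0.85 (SE 0.21, limma adjusted p = 0.0251). The adjusted p was 0.0533 without E16.5 replicate A, 0.0825 without E18.5 replicate A, 0.0790 without E18.5 replicate B and 0.104 with median-of-ratios scaling.

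Abcb1a and Abcb1b encode the P-glycoproteins of the mouse, which pump lipophilic drugs out across the apical membrane. They lie next to each other on chromosome 5 (Abcb1a, ENSMUSG00000040584.8, chr5:8660077-8748575; Abcb1b, ENSMUSG00000028970.9, chr5:8798147-8866315; GRCm38, both on the plus strand). The genes share sequence: 17% of the 50-base windows of the Abcb1a transcript and 18.3% of those of Abcb1b occur in the other gene or in Abcb4, and the longest run common to both coding sequences was 338 bases. The part of that run in exon 14 is printed below for each gene, 5′ to 3′, to show how little separates their reads there; capitals mark the common run, at chr5:8702793-8702956 and chr5:8825113-8825276.
Abcb1a exon 14: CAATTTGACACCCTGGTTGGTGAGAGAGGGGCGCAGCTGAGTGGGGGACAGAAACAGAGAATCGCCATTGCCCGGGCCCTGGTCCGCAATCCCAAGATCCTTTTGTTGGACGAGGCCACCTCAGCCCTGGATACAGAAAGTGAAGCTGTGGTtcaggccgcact
Abcb1b exon 14: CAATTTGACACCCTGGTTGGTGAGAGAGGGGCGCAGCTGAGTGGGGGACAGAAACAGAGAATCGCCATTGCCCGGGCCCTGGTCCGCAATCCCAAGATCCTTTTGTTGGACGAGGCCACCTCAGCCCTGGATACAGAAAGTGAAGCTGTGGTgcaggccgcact
Reads from such stretches could be assigned to either gene or dropped, depending on how the counting treated them, so the split between both genes is uncertain.

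Abcb1a read 4.30, 5.94 and 4.19 TPM at E16.5 and 8.78, 7.78 and 8.94 TPM at E18.5. The lowest E18.5 library lay above the highest E16.5 library. The change was 0.72 (SE 0.20, limma adjusted p = 0.0350; relative change 0.30). This call was held in only 1 of the 6 fits without a library (without E16.5 replicate B) and had an adjusted p of 0.0874, 0.0820, 0.106, 0.0767 and 0.0836 without E16.5 replicates A and C and E18.5 replicates A, B and C.

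Abcb1b was at 0.744, 0.818 and 0.455 TPM at E16.5, which rested on 51, 51 and 29 reads, and at 2.05, 2.18 and 1.91 TPM at E18.5, on 112, 89 and 62 reads. All E18.5 values exceeded the E16.5 values, and the mean rose 3.04-fold, while on the log2(TPM + 1) scale, where changes of low genes come out smaller, it rose by 0.87 (SE 0.27, limma adjusted p = 0.0472). No fit without a library kept the call: the adjusted p was 0.0830, 0.0855 and 0.109 without E16.5 replicates A, B and C, and 0.104, 0.0967 and 0.0605 without E18.5 replicates A, B and C. The level of Abcb1a divided by that of Abcb1b was 5.77, 7.26 and 9.20 at E16.5 and 4.28, 3.57 and 4.68 at E18.5, so Abcb1a was the higher of the pair in all 6 libraries and the ratios of the stages did not overlap (exact permutation p = 0.1).

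Abcg2 (ENSMUSG00000029802.13, chr6:58584523-58695676), an apical exporter of urate, porphyrins and many drugs, was the only gene of this group called as lower. It read 26.0, 24.2 and 26.4 TPM at E16.5 and 16.0, 18.45 and 18.8 TPM at E18.5. The stages were well apart compared with the spread within them (25.6 ± 1.16 against 17.8 ± 1.48 TPM, SD, n = 3 each), with a change of -0.50 (SE 0.13, limma adjusted p = 0.0281; relative change -0.92). Without a library it was called in 1 of 6 fits (without E18.5 replicate C): the adjusted p was 0.0737, 0.0590 and 0.0597 without E16.5 replicates A, B and C, and 0.0980 and 0.0631 without E18.5 replicates A and B.

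Abcc5, which exports cyclic nucleotides, had the highest level of the group, with 83.1, 85.8 and 64.7 TPM at E16.5 and 100.4, 112 and 82.3 TPM at E18.5. The stages overlapped, and the change of 0.33 (SE 0.16, limma adjusted p = 0.154) did not pass. Abcg3 varied more between libraries than between stages: it read 1.64, 0.614 and 0.424 TPM at E16.5 and 0.412, 2.37 and 0.832 TPM at E18.5, a 5.75-fold range within E18.5, on 10 to 50 reads per library (limma adjusted p = 0.773). The leukocyte marker sum was highest in the same library, E18.5 replicate B (286 TPM, against 117 and 141 TPM in E18.5 replicates A and C), as was the erythroid sum (733 TPM). Within E16.5 the leukocyte sum had another order than Abcg3, with 119 TPM in replicate A, 102 in B and 137 in C. Their part was not tested. The others tested, Abcc1 and Abcc10, lay between 5.25 and 14.8 TPM in the 6 libraries and were not called.

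Lipid transporters, which are subfamily A with Abcg1 and Abcg4, were the largest group, with 18 genes. Of the 12 tested, Abca8a was higher at E18.5, Abca7 and Abca1 were lower and 9 were not called, and the median change was -0.11 (-0.48 with median-of-ratios scaling). On the log2(TPM + 1) scale, the group held the strongest fall and the second strongest rise of all tested ABC genes. By the ratio of the means, Abcb1b rose more than Abca8a, the gene of this second rise (3.04-fold against 2.47-fold).

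Abca7 (ENSMUSG00000035722.15, chr10:79996494-80015572, plus strand), a phospholipid transporter related to Abca1 and known for a role in phagocytosis, fell more than any other ABC gene tested. Its levels were 43.3, 29.1 and 58.7 TPM at E16.5 and 5.52, 10.7 and 8.10 TPM at E18.5, resting on 1534 to 3162 reads and 222 to 368 reads. The stages stood far apart, and the mean of 43.7 ± 14.8 TPM became 8.09 ± 2.57 TPM (SD, n = 3 each), which is 5.4-fold lower. The change was -2.28 (SE 0.31, limma adjusted p = 0.00890; relative change -2.70), it was called under all 15 alternatives, and it ranged from -2.72 to -2.05 among them. Among the 21819 protein-coding genes listed, its mean was in the 85.9th percentile at E16.5 and in the 51.9th at E18.5.

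The order of the 6 libraries by Abca7 was the same as their order by the megakaryocyte marker sum, which was 7233, 4202 and 11823 TPM in E16.5 replicates A, B and C and 153, 938 and 331 TPM in E18.5 replicates A, B and C. Within E16.5 both were highest in replicate C and lowest in replicate B, and within E18.5 both were highest in replicate B and lowest in replicate A. All 12 genes of that marker list were lower at E18.5, and no one of them was at 0 in any library. The part of megakaryocyte RNA in the level of Abca7 was not tested. The 250 bases before the start of Abca7 at chr10:79996244-79996493, from RefSeq on GRCm38.p6, are printed to show the motifs found there, in capitals: CCAAT at positions -99 and -63 and GGGCGG at -46, where -1 is the base before the start and a motif is placed by its first base.
Abca7 upstream: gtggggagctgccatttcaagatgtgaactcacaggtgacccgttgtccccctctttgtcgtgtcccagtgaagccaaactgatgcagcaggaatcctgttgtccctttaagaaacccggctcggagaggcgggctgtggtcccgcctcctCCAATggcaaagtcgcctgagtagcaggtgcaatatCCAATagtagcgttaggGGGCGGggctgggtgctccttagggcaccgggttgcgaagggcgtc
On either strand, CCAAT was present in 33.8% and GGGCGG in 32.7% of the same windows before all 32851 RefSeq start sites, and in 25.6% and 48.7% of the 39 windows of the 33 ABC genes that were matched. TATAAA was present in 12.4% of all windows and 7.69% of those of the ABC genes.

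**Figure D4:**
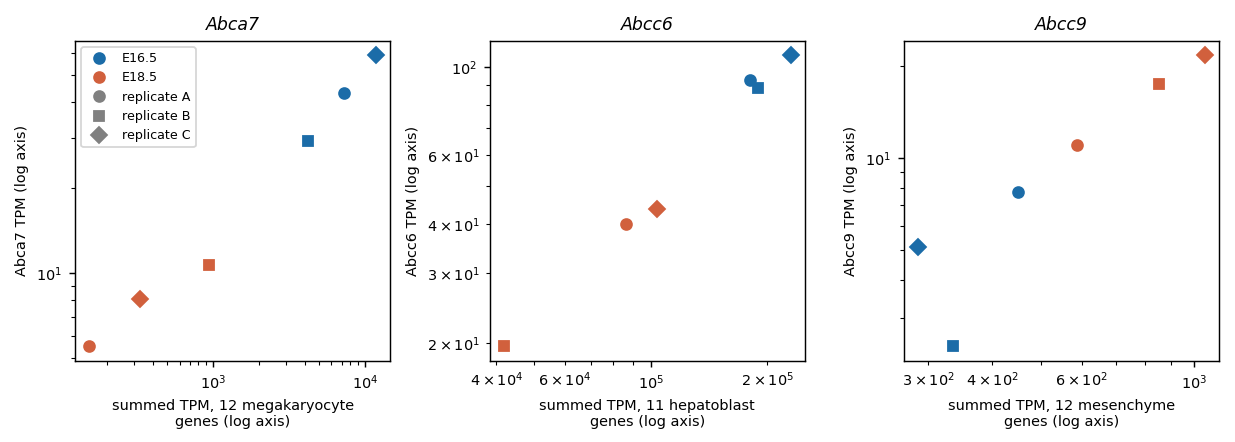
TPM of Abca7, Abcc6 and Abcc9 (y axes, log) against the summed TPM of the megakaryocyte, hepatoblast and mesenchyme marker genes (x axes, log), with 1 point per library, E16.5 in blue and E18.5 in orange. Abca7 and the megakaryocyte sum put the 6 libraries in the same order, with all E16.5 libraries above all E18.5 libraries in both.

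Abca1 (ENSMUSG00000015243.4, chr4:53030787-53159895) had the highest mean of all 45 genes at both stages. It read 290, 272 and 322 TPM at E16.5 and 187, 149 and 192 TPM at E18.5. The lowest E16.5 library was above the highest E18.5 library, with means of 295 ± 25.4 and 176 ± 23.0 TPM (SD, n = 3 each) and a change of -0.75 (SE 0.14, limma adjusted p = 0.0139; relative change -1.16). Without E18.5 replicate A the change was -0.79 with an adjusted p of 0.0514, and every other alternative kept the call. Apoa1, the apolipoprotein that takes up the lipid exported by Abca1, went from 6334 ± 1066 to 1766 ± 1383 TPM (log2 change -2.23, limma adjusted p = 0.0397), and 7 of 11 hepatoblast markers, Apoa1 among them, were lower at E18.5. The part of hepatoblast RNA in the level of Abca1 was not tested.

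Abca8a (ENSMUSG00000041828.15), a lipid transporter related to Abca8b, Abca9, Abca6 and Abca5, lies with these 4 in a row on chromosome 11. It read 60.3, 79.9 and 67.8 TPM at E16.5 and 202, 128 and 185 TPM at E18.5. No E18.5 library came down to the E16.5 range, and the mean rose 2.47-fold, from 69.3 ± 9.92 to 172 ± 38.9 TPM (SD, n = 3 each). The change was 1.28 (SE 0.20, limma adjusted p = 0.0105; relative change 0.86), it kept its call without each of the 6 libraries, and it had an adjusted p of 0.0689 with median-of-ratios scaling, where it was 0.81.

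The neighbours, named after their values were seen, were not called. In GRCm38 the row runs, all on the minus strand, from Abca8b (chr11:109932190-109995845) through Abca8a (chr11:110025634-110095978), Abca9 (chr11:110100749-110168196) and Abca6 (chr11:110176820-110251776) to Abca5 (chr11:110269369-110337716). Abca8b read 122, 132 and 154 TPM at E16.5 and 153, 93.1 and 150 TPM at E18.5, and these values overlapped (change -0.07, SE 0.21, limma adjusted p = 0.809). Abca9 lay between 2.27 and 5.30 TPM, Abca6 between 44.9 and 77.5 TPM and Abca5 between 8.90 and 10.3 TPM in the 6 libraries, with changes of -0.48, 0.08 and 0.14 that were not called (adjusted p of 0.20, 0.799 and 0.482). A test of the difference between Abca8a and each neighbour was made only for Abca8b, as a ratio within each library.

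The ratio of Abca8a to Abca8b was 0.495, 0.604 and 0.442 at E16.5 and 1.32, 1.37 and 1.23 at E18.5. Abca8b was thus the higher of the pair in each E16.5 library and Abca8a in each E18.5 library, with means of 0.513 ± 0.083 and 1.31 ± 0.071 (SD, n = 3 each; exact permutation p = 0.1, the smallest possible here). This ratio does not depend on the scaling between libraries. Abca8a made up 25.2 ± 3.33% of the sum of the 5 genes at E16.5 and 45.4 ± 1.9% at E18.5 (exact permutation p = 0.1), while the sum itself was 276 ± 27.3 and 378 ± 87.1 TPM (exact permutation p = 0.2).

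Abca8a and Abca8b are close paralogs, but their transcripts can be told apart over most of their length: 1.89% of the 50-base windows of Abca8a and 1.42% of those of Abca8b occur in the other. Their longest common coding run was 97 bases, and its part in exon 15 is printed for both genes at chr11:110069375-110069461 and chr11:109966681-109966767, minus strand, with the common bases in capitals.
Abca8a exon 15: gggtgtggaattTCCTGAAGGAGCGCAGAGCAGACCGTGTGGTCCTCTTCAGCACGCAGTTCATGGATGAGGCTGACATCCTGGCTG
Abca8b exon 15: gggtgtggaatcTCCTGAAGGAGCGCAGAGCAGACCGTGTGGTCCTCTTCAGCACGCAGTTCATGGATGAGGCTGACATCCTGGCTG
The sequences before their starts are shown next because these neighbouring genes, related in sequence, moved differently. They were cut to bases outside annotated exons, at chr11:110095979-110096187 for Abca8a (209 bases, GC content 43.1%) and chr11:109995846-109996095 for Abca8b (250 bases, GC content 48.8%).
Abca8a upstream: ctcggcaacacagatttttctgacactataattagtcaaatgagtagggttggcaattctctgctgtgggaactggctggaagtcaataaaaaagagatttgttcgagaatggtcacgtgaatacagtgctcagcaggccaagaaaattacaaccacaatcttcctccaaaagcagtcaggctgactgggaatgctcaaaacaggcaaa
Abca8b upstream: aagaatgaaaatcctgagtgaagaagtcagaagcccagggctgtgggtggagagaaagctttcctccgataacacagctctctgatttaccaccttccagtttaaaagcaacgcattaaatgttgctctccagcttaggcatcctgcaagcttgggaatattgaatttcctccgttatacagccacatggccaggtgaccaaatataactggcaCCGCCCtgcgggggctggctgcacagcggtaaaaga
None of the 3 motifs was found on either strand in the window of Abca8a. In that of Abca8b, the only match was GGGCGG on the other strand, at position -36, in capitals.

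**Figure D5:**
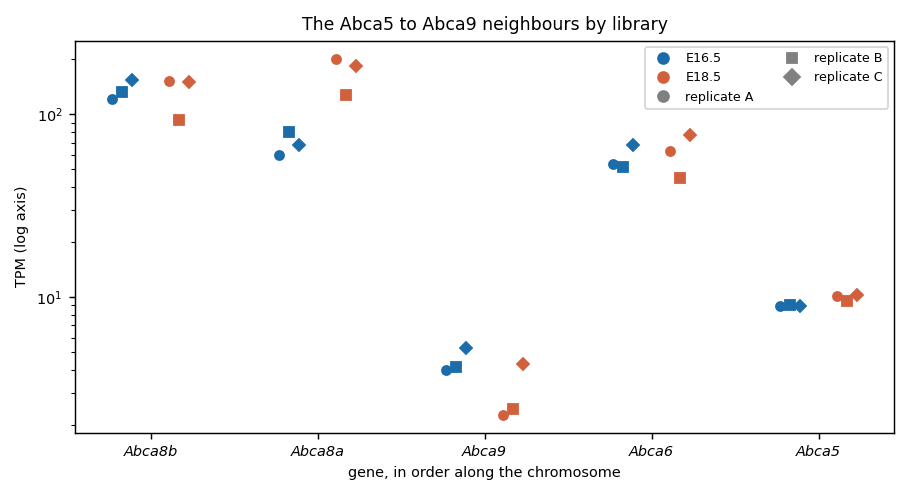
TPM (y axis, log) of the 5 neighbouring genes on chromosome 11 in their order along the chromosome, with the 3 E16.5 libraries in blue and the 3 E18.5 libraries in orange. Abca8a lies at 60.3 to 79.9 TPM at E16.5 and at 128 to 202 TPM at E18.5, while the values of Abca8b, Abca9 and Abca6 overlap between the stages.

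Among the other tested lipid transporters, Abca3, the transporter of the lamellar bodies of lung, read 104 to 131 TPM at E16.5 and 135 to 171 TPM at E18.5, which did not overlap and was not called (change 0.38, limma adjusted p = 0.0793). It is named after its values were seen, for a level over 100 TPM in every library. Of its exon bases, 9.75% lie opposite an antisense gene. Abca2, Abca4, Abcg1 and Abcg4 lay between 0.860 and 28.1 TPM in the 6 libraries and were not called, although Abca2 was called as lower with median-of-ratios scaling (-0.37, limma adjusted p = 0.0499). The 6 lipid transporters that were not tested, Abca12 to Abca17, had levels of at most 1.16 TPM in any library.

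The 5 members of subfamily B that work in mitochondria and lysosomes were all tested, and 1 was lower at E18.5. Abcb9, a peptide transporter of lysosomes, read 4.25, 3.20 and 4.43 TPM at E16.5 and 1.75, 2.13 and 1.85 TPM at E18.5. All E18.5 values were below the E16.5 values, and the mean was 2.08-fold lower (ENSMUSG00000029408.13, chr5:124061530-124095798; change -0.76, SE 0.23, limma adjusted p = 0.0462). The call was lost in all 6 fits without a library, where the adjusted p was 0.11, 0.0673 and 0.117 without E16.5 replicates A, B and C and 0.118, 0.0852 and 0.0837 without E18.5 replicates A, B and C. As with Abca7, the order of the 6 libraries was that of the megakaryocyte marker sum, and its part was not tested.

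Of the others, which were not called as deposited, 3 are given here, named after their values were seen. Abcb8 and Abcb10, of the mitochondrial inner membrane, lay between 25.4 and 35.0 TPM and were called as lower with median-of-ratios scaling (changes of -0.46 and -0.60, limma adjusted p of 0.0232 and 0.0191). Abcb6, a porphyrin transporter, lay between 1.25 and 1.76 TPM, and 55.2% of its exon bases are shared on the same strand with another annotated gene, so its level is uncertain.

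Subfamily D, the transporters of peroxisomes and, for Abcd4, of cobalamin in lysosomes, counted 4 genes, and 1 was higher at E18.5. Abcd3, which brings branched-chain and bile acid intermediates into peroxisomes, read 57.7, 58.0 and 54.3 TPM at E16.5 and 79.1, 81.1 and 75.3 TPM at E18.5. The spread within each stage was small against the difference (56.7 ± 2.09 and 78.5 ± 2.93 TPM, SD, n = 3 each; ENSMUSG00000028127.10, chr3:121758774-121815302; change 0.46, SE 0.10, limma adjusted p = 0.0187). Its relative change was 0.05, and with median-of-ratios scaling it was 0.0032 (adjusted p = 0.985). Without E18.5 replicate A the adjusted p was 0.0711, and without E18.5 replicate B it was 0.0522.

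Abcd2, the transporter of very long-chain and unsaturated acyl-CoA, stood out by its spread. It read 24.3, 27.9 and 38.5 TPM at E16.5 and 25.6, 8.78 and 56.4 TPM at E18.5, a 6.42-fold range between libraries of one stage. The lowest and the highest of the 6 values were both at E18.5, and no stage difference was called (change -0.32, SE 0.58, limma adjusted p = 0.688; 0.35 without E18.5 replicate B). The hepatoblast marker sum had the same order within each stage, with 86146 TPM in E18.5 replicate A, 41836 in B and 103919 in C, and its part was not tested. Abcd4 lay between 4.45 and 7.18 TPM in the 6 libraries and was not called.

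Abcc6 and the sulfonylurea receptors Abcc8 and Abcc9 belong to subfamily C but are not multidrug exporters. Of the 3, Abcc9 was higher at E18.5, Abcc6 was lower and Abcc8 was not called.

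Abcc6 (ENSMUSG00000030834.7, chr7:45967555-46030302), which drives release of ATP from liver cells and so feeds the pyrophosphate that prevents calcification, read 92.8, 88.7 and 107 TPM at E16.5 and 40.1, 19.6 and 43.6 TPM at E18.5. The highest E18.5 library had less than the lowest E16.5 library. The mean was 2.80-fold lower (96.3 ± 9.76 against 34.4 ± 12.9 TPM, SD, n = 3 each), with a change of -1.53 (SE 0.29, limma adjusted p = 0.0142; relative change -1.95), and the call held under all 15 alternatives. The hepatoblast marker sum had replicate C highest at both stages and E18.5 replicate B lowest, as did Abcc6, with replicates A and B of E16.5 in the other order; its part was not tested. Of the partners of Abcc6 in this pathway, Enpp1, which makes pyrophosphate from ATP, went from 14.99 ± 4.36 to 31.8 ± 5.30 TPM, and Ank, which takes part in its release, from 14.7 ± 1.07 to 27.1 ± 4.67 TPM (limma adjusted p of 0.0196 and 0.0154; 0.0773 and 0.0874 with median-of-ratios scaling).

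Abcc9 (ENSMUSG00000030249.15, chr6:142587862-142702315), the regulatory subunit of ATP-sensitive potassium channels of vessels and smooth muscle, had the largest rise of the tested ABC genes. It read 7.77, 2.43 and 5.14 TPM at E16.5 and 11.0, 17.5 and 21.6 TPM at E18.5. No library of one stage reached into the other, although both stages were spread widely (5.11 ± 2.67 and 16.7 ± 5.35 TPM, SD, n = 3 each), and the change was 1.59 (SE 0.39, limma adjusted p = 0.0252; relative change 1.17). The adjusted p was 0.0598 without E16.5 replicate C, 0.0558, 0.0790 and 0.0673 without E18.5 replicates A, B and C, and 0.0932 with median-of-ratios scaling. Kcnj8, the pore subunit that pairs with Abcc9, read 1.1, 0.302 and 1.08 TPM at E16.5 and 3.27, 5.14 and 5.51 TPM at E18.5, again without overlap (change 1.64, limma adjusted p = 0.0151). Of 12 mesenchyme markers 5 were higher at E18.5, and their sum, 587, 852 and 1049 TPM in E18.5 replicates A, B and C, had the order of Abcc9. The order within E16.5 differed, with sums of 451 TPM in replicate A, 335 in B and 287 in C. Vim gave 178, 216 and 87.0 TPM of these sums. Apart from Vim and Lrat, every gene of that list had the order of Abcc9 at both stages. The endothelial marker sum also had the order of Abcc9 within each stage, with 227, 143 and 159 TPM in the E16.5 libraries and 143, 261 and 266 TPM in the E18.5 libraries. No mesenchyme marker was at 0 in any library, none of the endothelial list was either, and the part of mesenchymal or endothelial RNA in the level of Abcc9 was not tested.

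Abcc8, the sulfonylurea receptor of pancreatic beta cells, is named after its values were seen. It read 3.72, 2.54 and 0.759 TPM at E16.5 and 1.73, 1.79 and 0.822 TPM at E18.5, and the stages overlapped (change -0.36, SE 0.43, limma adjusted p = 0.529). Its order within E16.5 was that of the 12 pancreatic genes, whose sum was 2394 TPM in replicate A, 232 in B and 69.4 in C, and 14.9 to 95.2 TPM at E18.5. Of these genes, Gcg, Ins1, Ins2, Neurod1 and Ptf1a were at 0 in at least 1 library; their part was not tested.

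The 4 genes of subfamilies E and F, which act in ribosome recycling and translation, were all tested. None was called by limma as deposited and none had an unadjusted p under 0.05. Limma voom on recovered reads called none of Abce1, Abcf1 and Abcf2 and could not be fitted for Abcf3. Abce1, which splits ribosomes after termination, was the highest of them, with 68.9, 66.9 and 59.1 TPM at E16.5 and 60.9, 81.8 and 65.0 TPM at E18.5. The stages overlapped (change 0.08, limma adjusted p = 0.675), and with median-of-ratios scaling the sign was the opposite and the gene was called as lower (-0.38, limma adjusted p = 0.0390). Abcf1, Abcf2 and Abcf3 lay between 28.5 and 72.4 TPM in the 6 libraries, with changes of 0.26 to 0.39, and of -0.19 to -0.07 with median-of-ratios scaling.

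The 8 genes that did not reach a mean of 1 TPM were Abca12, Abca13, Abca14, Abca15, Abca16, Abca17, Abcb5 and Abcc12. Their highest value in any library was 1.16 TPM, for Abca14 in E18.5 replicate B, and the libraries of the stages overlapped in all 8. Reads could be recovered for 7 of them and ranged from 0 to 96 per library. As the filter on the mean kept these genes out of the test, whether they differed between the stages was not assessed.

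The 5 bile salt and bile lipid exporters left out by the rule were tested in the same fit and none was called, none had an unadjusted p under 0.05 and none was called by limma voom. Of 3 ABC proteins with other symbols, Cftr, Tap1 and Tap2, none was called by limma or limma voom and 1 had an unadjusted p under 0.05. Among 29 tested partners, acceptors and regulators of the ABC genes, 7 were higher and 1, Apoa1, was lower. Over all genes tested, 26.0% were called as higher and 5.22% as lower, so these counts lay near the background. Besides Kcnj8, Enpp1 and Ank, the rises were Lmbrd1, which works with Abcd4 in cobalamin export (24.2 ± 1.88 to 44.2 ± 7.94 TPM, SD, n = 3 each), Hbs1l of the ribosome rescue pathway of Abce1 (44.4 ± 4.15 to 65.8 ± 0.85 TPM), and the nuclear receptors Rxrb (23.4 ± 3.13 to 39.1 ± 6.31 TPM) and Nr1h2 (35.7 ± 2.34 to 48.4 ± 4.0 TPM), which act on the promoters of sterol transporters such as Abca1. With median-of-ratios scaling, Kcnj8 alone of these 8 stayed past the threshold (limma adjusted p = 0.0386), and the change of Nr1h2 was -0.03. Under that scaling 8 other genes of this list were called as lower, against 10.5% of all genes tested.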

How the data were processed

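The members and all gene lists were chosen with earlier results of these data known. Total RNA of the sorted cells was sequenced with a stranded kit in 3 libraries per stage, and samples were grouped by the stage in their labels. The authors checked the reads with FastQC 0.11.7, trimmed them with Trimmomatic, aligned them to GRCm38 with HISAT2 2.1.0, counted them per gene with HTSeq 0.5.4p3 on GENCODE vM15 and deposited TPM, which sum to 1000000 per library. The submitters' processing notes also name Bowtie. The strand setting and the treatment of reads that match several places are not given in the sources used here. All 37 mitochondrial genes are listed at 0.

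Gene names and coordinates came from GENCODE vM21 on GRCm38 (52403 of 52550 identifiers matched). Read numbers were rebuilt from TPM and exon length, given what 1 read is worth in each library, and were whole within 0.01 in all 6 libraries for 49583 genes and 37 of the 45 members. Read totals cover counting error only. Libraries of one stage differed by a chi-square statistic per degree of freedom of at least 15.1, so none was a copy.

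The test of the stages was limma 3.58.1 (R 4.3.3; a linear model with trended empirical Bayes) on log2(TPM + 1) for all genes whose mean reached 1 TPM, Benjamini-Hochberg adjusted, at a threshold of 0.05. The scripts were tested on simulated data. Exact two-sided permutation tests went through every split of the 6 libraries into 3 and 3, in Python 3.11.15. Named members were those past the threshold, the highest of each role group, Abcb1a, Abcb1b and members with over 5-fold ranges within a stage at a stage mean of at least 1 TPM. A few genes, 1 of them named by this rule, are not reported here. Members outside this rule are said to be named after their values were seen, or are given by level or range only. Alternatives were a pseudocount of 0.1, no filter or a minimum mean of 5 TPM, median-of-ratios and quantile scaling, eBayes without trend or robust, the replicate letter as a block, limma voom on recovered reads, and leaving out each library. Upstream sequences are from RefSeq on GRCm38.p6, and exon sequences from GRCm38.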

Additional observations from a re-analysis of the deposited data

How the results depend on the processing

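Of the 294 recomputed values, 209 kept direction and side of the threshold, or stayed within 1.5 times the count. Genes past the threshold were 4282 with no filter, 3795 with median-of-ratios scaling, 3796 with quantile normalization and 1148 (without E18.5 replicate A) to 5432 when 1 library was left out, against 7000. Members past the threshold, 12 of 37, were 4 (without E18.5 replicate A) to 9 when 1 library was left out. Members higher at E18.5 were 1 with median-of-ratios scaling, 2 with quantile normalization and 2 to 6 without 1 library, against 7. Members lower at E18.5 were 9 with median-of-ratios scaling and 2 to 4 without 1 library, against 5. Among the 16 named members, the sign turned only for 4 that were not called as deposited: Abcc5 (-0.13 with median-of-ratios scaling), Abce1 (-0.38 with median-of-ratios scaling, -0.19 with quantile normalization and -0.060 with voom, and -0.043 to 0.17 without 1 library), Abcg3 (-0.038 with median-of-ratios scaling, -0.15 with quantile normalization, -0.18 to 0.45 without 1 library) and Abcd2 (-0.93 to 0.35 without 1 library). The causes were not tested, beyond fewer libraries in the last kind of fit and the shift of the median gene in the scalings. Whether the replicate letters pair the libraries was not settled. Deviations of same-lettered libraries correlated weakly, at -0.042, 0.081 and 0.140 for A, B and C. Some libraries correlated best with their own letter and others did not. With the letter as a replicate block, 7314 genes and 11 members were called, 7 higher and 4 lower; Abcb1a, Abcb1b and Abcb9 were lost and Abca3 and Abcc5 gained. Voom could not be fitted for the 8 members without recovered reads. Low members rest on few reads: Abcb1b on 29 to 112 and Abcg3 on 10 to 50 per library.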
